A study of Homo sapiens with 16 samples.

Results

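The BCL2 family sets whether a cell starts apoptosis through its mitochondria, and 10 of its genes were followed here through the response of bladder cancer (BC) cells to CM-1758, a histone deacetylase (HDAC) inhibitor. The 10 genes were taken by symbol from the 35993 genes of the deposited count table, and all 10 were among the 21297 genes with enough counts to be tested. They were BCL2, BCL2L1 and MCL1, which protect cells, BCL2L11, BBC3, PMAIP1, BMF and BIK, which carry the death signal, and BAX and BAK1, which open the mitochondrial outer membrane. With CM-1758, 4 of these 5 genes of the death signal, called BH3-only, were higher in 253J, 5 in RT112, 2 in J82 and 4 in TCCSUP, where 28.8%, 27.4%, 24% and 32% of all tested genes were. The 10 genes were picked with earlier results of these data known, so these counts do not test the family against that background. BID, a BH3-only gene outside the 10, was lower in all 4 lines. The antiapoptotic genes moved in different directions in different lines. BAX was lower in 253J, J82 and TCCSUP, but none of these falls was called when libraries were scaled by their size alone. BMF and BIK were the members higher in all 4 lines.

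The study profiled the BC cell lines 253J, J82, RT112 and TCCSUP by stranded total RNA sequencing after removal of ribosomal RNA. Cells of each line received either CM-1758 at the IC50 of that line, the concentration at which its measured response fell to the midpoint, or the vehicle (0.01% DMSO) as control, and RNA was taken after 48 h. Each line contributed 2 control and 2 treated libraries, 16 in all, and the labels give the same genotype, WT, for every library. 253J, J82 and RT112 were grown in DMEM with GlutaMAX and TCCSUP in EMEM, so the medium differs between TCCSUP and the other lines, and the dose also differs between lines. Each line is a single established cell line, and the replicates are described as independent biological replicates. The p-values rest on the spread between such cultures within lines, and the main fit shared its estimate over all 16 libraries. Chi-square per degree of freedom between the 2 libraries of a group was 73.1 in J82 controls and 49.2 in treated J82 cells. It was 11.7 to 21.8 in the groups of the other lines, so the shared estimate may be too small for J82.

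Members of this family act on each other by direct binding. Antiapoptotic proteins hold a groove that takes up the BH3 helix of their proapoptotic relatives, and BH3-only proteins released by stress occupy this groove or activate BAX and BAK directly. Activated BAX and BAK form oligomers that release cytochrome c, after which caspases are activated, and many cancers are known to keep antiapoptotic members at high levels. HDAC inhibitors are known to raise several BH3-only genes in other cancer cells.

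The BH3 stretch is the feature that ties these 10 genes together, and its coding sequence is shown for each of them because the binding between members runs through it. Each sequence is 27 bases of the coding strand, 5′ to 3′, read from a GENCODE release 29 coding transcript of the gene on GRCh38. The capitals mark the codon of the conserved leucine and the codons of the small residue and the aspartate that follow it after 3 other residues. Each of the 10 transcripts held this pattern exactly 1 time.
BCL2: CTCcgccaggccGGCGACgacttctcc
BCL2L1: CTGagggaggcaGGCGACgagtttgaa
MCL1: TTAcgacgggttGGGGATggcgtgcag
BCL2L11: TTGcggcgtattGGAGACgagtttaac
BBC3: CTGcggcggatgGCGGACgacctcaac
PMAIP1: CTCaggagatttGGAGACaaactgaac
BMF: CTTcagtgcattGCAGACcagttccac
BIK: CTGgcctgcatcGGGGACgagatggac
BAX: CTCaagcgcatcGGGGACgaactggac
BAK1: CTCgccatcatcGGGGACgacatcaac
The small residue was glycine in 8 members and alanine in BBC3 and BMF. The stretch lay at codons 137 to 145 of 184 in BMF, at 61 to 69 of 160 in BIK and at 29 to 37 of 54 in PMAIP1, the shortest of the coding sequences, whereas MCL1, the longest, carried it at 213 to 221 of 350. The genes lie on chromosome 18 (BCL2 and PMAIP1), 20 (BCL2L1), 1 (MCL1), 2 (BCL2L11), 19 (BBC3 and BAX), 15 (BMF), 22 (BIK) and 6 (BAK1).

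The 250 bases before a RefSeq transcription start (GRCh38.p14) were read for the 8 members present in the promoter table, which gave 10 windows because BMF and BCL2L1 have 2 starts each. BIK and MCL1 had no entry. The windows of BMF, BCL2L11 and BAX are shown, as a BH3-only gene raised in every line, a BH3-only gene raised in 3 lines and the effector that fell in 3 lines. The capitals mark matches on either strand to the GC box, GGGCGG or CCGCCC, which is the core bound by Sp1-type factors, and to the E-box, CACGTG, which is read by MYC and related factors, and the marked letters do not overlap. The windows are chr15:40108880-40109129 on the minus strand for BMF, chr2:111120664-111120913 on the plus strand for BCL2L11 and chr19:48954625-48954874 on the plus strand for BAX.
BMF: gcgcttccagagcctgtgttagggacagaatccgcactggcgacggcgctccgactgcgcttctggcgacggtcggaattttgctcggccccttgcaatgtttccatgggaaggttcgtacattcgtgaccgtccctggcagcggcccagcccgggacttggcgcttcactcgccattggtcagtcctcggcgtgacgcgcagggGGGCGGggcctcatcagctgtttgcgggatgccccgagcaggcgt
BCL2L11: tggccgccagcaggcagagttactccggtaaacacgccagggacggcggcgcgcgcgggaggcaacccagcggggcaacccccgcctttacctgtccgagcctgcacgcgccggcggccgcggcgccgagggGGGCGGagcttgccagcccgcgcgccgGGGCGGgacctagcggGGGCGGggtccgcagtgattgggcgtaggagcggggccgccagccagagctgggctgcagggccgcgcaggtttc
BAX: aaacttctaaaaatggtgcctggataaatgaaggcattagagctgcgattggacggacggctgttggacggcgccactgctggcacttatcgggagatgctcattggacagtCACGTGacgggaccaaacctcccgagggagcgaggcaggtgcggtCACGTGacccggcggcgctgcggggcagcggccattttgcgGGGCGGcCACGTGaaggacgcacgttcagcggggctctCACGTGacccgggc
A GC box was present in 5 of the 10 windows, against 42.6% of 35116 windows of the same length over all genes. BCL2L11 held 3, PMAIP1 held 4, BAK1 held 2 and BAX and the shown BMF window held 1 each. The E-box was present in 2 of the 10 windows, those of BBC3 and BAX, against 6.34% of all windows, and BAX held 4 copies, where 0.0797% of all windows held 3 or more. These are matches of letters, with no binding measured in these cells.

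The libraries held between 22506431 and 32537104 counts (median 28332731), and control libraries were deeper (median 29363076) than treated libraries (median 23590242.5). Values are given as CPM, the reads of a gene scaled to the size of its library with TMM normalization, which assumes that most genes do not move, and scaling by library size alone moved the median log2 fold change of all genes from 0.10 to 0.37 in 253J, from 0.05 to 0.19 in J82, from 0.12 to 0.27 in RT112 and from 0.20 to 0.51 in TCCSUP. The epithelial keratins KRT8 and KRT18 were counted in every library, whereas EPCAM was near 0 in 253J and J82 (0.436 to 1.98 CPM in group means) and the urothelial gene UPK2 was at 2.74 to 4.37 CPM in RT112 and at 0.0444 CPM or less in the other lines. Counts of CD3E and LYZ did not pass 19 in any library, and the leukocyte gene PTPRC was at 8.66 CPM in TCCSUP control cells and 1.25 CPM after treatment, a difference whose part in the results for that line was not tested.

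In these bulk samples fewer cells with a transcript and less transcript per cell cannot be told apart, and gene counts do not separate splice forms, such as the long and short forms of BCL2L1 and of MCL1, which are known to act in opposite directions. Differences were tested with the quasi-likelihood F test of edgeR, with p-values adjusted by Benjamini-Hochberg over all tested genes, and calls were made at an adjusted p under 0.05. The fold changes are given on the log2 scale with their standard errors (SE). The plot of all members by library shows the individual values that are described gene by gene in the following paragraphs.

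**Figure D1:**
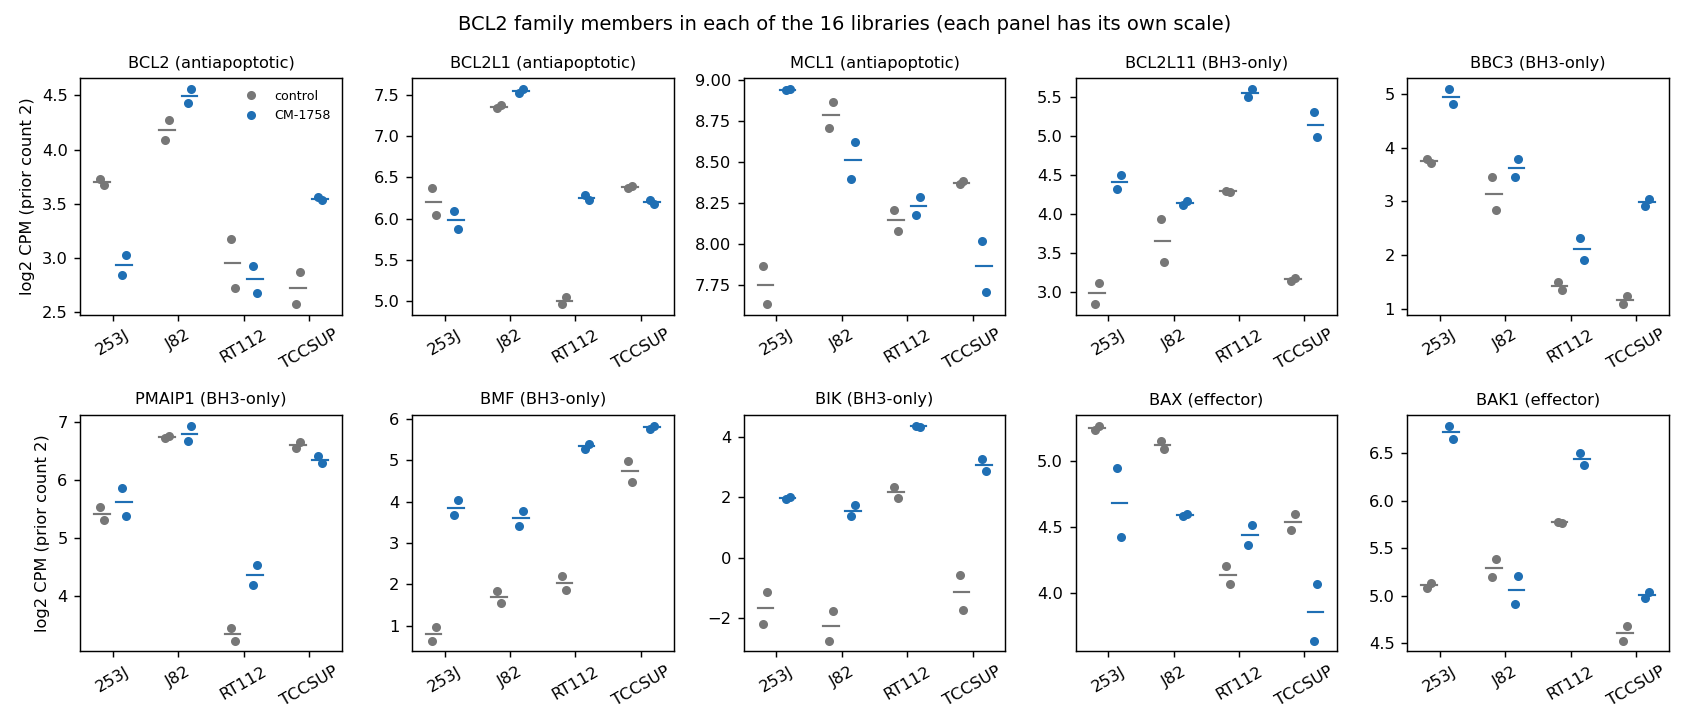
Level of the 10 members in each of the 16 libraries, as log2 CPM with a prior count of 2 on the y axis and the cell lines on the x axis. Grey points are control libraries, blue points are CM-1758 libraries, short lines are the means of the 2 libraries of a group, and each panel has its own scale. The blue points of BMF, BIK and BCL2L11 lie above the grey ones in all 4 lines, though BCL2L11 was not called in J82. Those of BCL2, BCL2L1, MCL1 and BAX change sides between lines.

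BMF encodes a BH3-only protein that is tethered to the cytoskeleton through dynein light chains until cells detach or are stressed. In 253J the control libraries had 1.48 and 1.88 CPM and the treated libraries 12.7 and 16.4 CPM. In RT112 the controls had 4.51 and 3.59 CPM and the treated libraries 38.9 and 42.3 CPM. The treated libraries thus lay far above the controls in both lines, by a fold of 8.66 in 253J (log2 fold change 3.11, SE 0.24, adjusted p = 1.42e-07) and of 10.0 in RT112 (3.32, SE 0.22, adjusted p = 4.39e-08). In J82 BMF stood at 3.53 and 2.87 CPM in controls and at 10.6 and 13.7 CPM after treatment, a log2 fold change of 1.92 (SE 0.22, adjusted p = 9.64e-06). TCCSUP started from a higher level, 31.8 and 22.2 CPM, and reached 54.3 and 57.1 CPM, a log2 fold change of 1.04 (SE 0.20, adjusted p = 4.14e-04). Control and treated libraries did not overlap in any line, and the line with the highest control level had the lowest fold change.

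BIK encodes a BH3-only protein that resides mainly at the endoplasmic reticulum. It was nearly silent in the controls of 3 lines, with 4 and 10 reads in 253J, 2 and 6 reads in J82 and 15 and 6 reads in TCCSUP. The treated libraries of these lines held 96 and 116 reads, 70 and 96 reads, and 254 and 185 reads. RT112 differed in its controls, with 153 and 115 reads, and reached 523 and 526 reads with CM-1758. On the CPM scale the treated means were 3.86 ± 0.0790 in 253J, 20.3 ± 0.286 in RT112, 2.88 ± 0.526 in J82 and 8.39 ± 1.58 in TCCSUP (SD, n = 2). BIK was called higher in every line, with log2 fold changes of 3.86 in 253J (SE 0.45, adjusted p = 4.55e-06), 2.19 in RT112 (SE 0.32, adjusted p = 6.82e-05), 4.24 in J82 (SE 0.49, adjusted p = 9.45e-06) and 4.34 in TCCSUP (SE 0.41, adjusted p = 8.11e-07). Because the control counts were small, the ratio of summed reads was also given an exact 95% interval for counting error alone. That ratio was 14.8 (8.64 to 27.6) in 253J, 4.54 (3.97 to 5.21) in RT112, 19.4 (9.64 to 45.8) in J82 and 20.6 (13.3 to 33.6) in TCCSUP. BIK was the only member with fewer than 10 reads in any library, and it passed the filter on low counts also through the RT112 controls.

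BCL2L11 encodes BIM, a BH3-only protein that binds all the antiapoptotic members and activates BAX and BAK. TCCSUP showed the largest of its differences, from 8.79 and 9.0 CPM in controls to 39.4 and 31.4 CPM with CM-1758 (log2 fold change 1.99, SE 0.18, adjusted p = 6.16e-07). In 253J it went from 7.13 and 8.62 CPM to 20.0 and 22.4 CPM (1.43, SE 0.18, adjusted p = 1.30e-05). In RT112 it went from 19.6 and 19.4 CPM to 45.1 and 48.3 CPM (1.26, SE 0.18, adjusted p = 4.01e-05). The control and treated libraries stood clear of each other in these 3 lines. In J82 the controls had 15.2 and 10.3 CPM and the treated libraries 17.2 and 17.8 CPM, which is higher in both treated libraries but by a log2 fold change of 0.46 (SE 0.18) that missed the threshold (adjusted p = 0.0519). Several other settings placed the J82 difference past the threshold, among them RLE scaling (0.55, adjusted p = 0.0232) and the fit without control replicate 1 (0.76, adjusted p = 0.00522).

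BBC3 encodes PUMA, a BH3-only protein that binds all the antiapoptotic members. Its control level was 13.7 and 13.1 CPM in 253J, and 33.9 and 27.9 CPM were measured after treatment (log2 fold change 1.21, SE 0.22, adjusted p = 3.02e-04). In TCCSUP it moved from 2.06 and 2.30 CPM to 7.49 and 8.18 CPM (1.84, SE 0.25, adjusted p = 2.33e-05). Groups were well apart in both lines. RT112 had 2.75 and 2.47 CPM in controls and 4.93 and 3.699 CPM with CM-1758 (0.72, SE 0.25, adjusted p = 0.0259), a call that was lost without control replicate 1, control replicate 2 or treated replicate 1 (adjusted p = 0.0708, 0.128 and 0.206) and in DESeq2 fitted to the line alone (0.0928). In J82 the libraries overlapped, with 10.9 and 7.05 CPM in controls and 10.8 and 13.8 CPM after treatment (0.45, SE 0.22, adjusted p = 0.117), and this difference passed the threshold without control replicate 1 (adjusted p = 0.0175) or treated replicate 1 (0.0496).

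PMAIP1 encodes NOXA, a BH3-only protein that binds MCL1 above all. It was called in RT112, where the controls had 10.95 and 9.39 CPM and the treated libraries 18.3 and 23.0 CPM (log2 fold change 1.02, SE 0.18, adjusted p = 3.20e-04). RT112 was also the line with the lowest control level. In 253J the values overlapped, with 46.3 and 39.5 CPM in controls and 58.1 and 41.6 CPM with CM-1758 (0.22, 95% interval -0.18 to 0.61), and the estimate turned to -0.04 without treated replicate 1. In J82, too, they overlapped, with 105.8 and 108.4 CPM against 101.2 and 121.7 CPM (0.06, interval -0.33 to 0.45), and the estimate turned to -0.08 without treated replicate 3. In TCCSUP the treated libraries, at 84.9 and 77.9 CPM, lay below the controls, at 93.2 and 99.9 CPM, but the log2 fold change of -0.25 (interval -0.64 to 0.15) was not called and became 0.07 when libraries were scaled by size alone. The adjusted p-values of these 3 lines were 0.316, 0.852 and 0.237.

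MCL1 encodes a short-lived antiapoptotic protein that restrains BAK and BIM. In 253J it rose from 233.0 and 198.5 CPM to 489.5 and 491.6 CPM, a fold of 2.27 (log2 fold change 1.19, SE 0.15, adjusted p = 9.74e-06). In TCCSUP it fell from 328.9 and 333.2 CPM to 258.8 and 208.9 CPM, by 0.50 on the log2 scale (SE 0.15, adjusted p = 0.00964). The groups did not overlap in either line, yet the TCCSUP call was lost without treated replicate 2 (adjusted p = 0.1202) and with scaling by library size alone (0.244). J82 had 416.3 and 465.8 CPM in controls and 336.4 and 393.1 CPM after treatment (-0.27, 95% interval -0.61 to 0.06, adjusted p = 0.149). RT112 had 295.4 and 270.2 CPM against 288.7 and 311.5 CPM, which overlapped (0.09, interval -0.25 to 0.42, adjusted p = 0.675).

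BCL2L1 encodes BCL-XL and its shorter proapoptotic form BCL-XS. RT112 was the line in which it was called, from 31.1 and 32.8 CPM in controls to 77.9 and 74.5 CPM with CM-1758, a fold of 2.39 (log2 fold change 1.26, SE 0.13, adjusted p = 3.48e-06). RT112 had the lowest control level and after treatment stood near the level of 253J and TCCSUP. In J82 the controls had 162.6 and 166.9 CPM and the treated libraries 185.1 and 190.8 CPM (0.19, SE 0.13, adjusted p = 0.262), a difference that passed the threshold in DESeq2 over all lines (0.28, adjusted p = 0.0386) and with library size alone (0.34, adjusted p = 0.0397). In 253J the controls had 82.7 and 65.8 CPM and the treated libraries 68.1 and 58.6 CPM, with overlap (-0.23, adjusted p = 0.159, and 0.04 when scaled by library size alone). In TCCSUP the controls had 83.0 and 83.9 CPM and the treated libraries 75.1 and 72.5 CPM (-0.18, adjusted p = 0.267, and 0.13 when scaled by library size alone).

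BCL2, the founding antiapoptotic member, moved in opposite directions in 253J and TCCSUP. In 253J it fell from 13.2 and 12.7 CPM to 7.09 and 8.07 CPM, by 0.77 on the log2 scale (SE 0.19, adjusted p = 0.00324). In TCCSUP it rose from 5.90 and 7.24 CPM to 11.7 and 11.5 CPM, a log2 fold change of 0.82 (SE 0.19, adjusted p = 0.00226). The libraries of the groups were apart in both lines. In J82 the treated libraries, at 21.4 and 23.5 CPM, lay above the controls, at 16.9 and 19.3 CPM (0.31, SE 0.18, adjusted p = 0.192), and this was past the threshold when genes needed 10 counts in every library (0.42, adjusted p = 0.0485). In RT112 the values overlapped, with 8.96 and 6.54 CPM in controls and 7.55 and 6.33 CPM after treatment (-0.16, SE 0.19, adjusted p = 0.530), and the estimate was 0.08 without control replicate 1.

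BAX encodes an effector that is largely cytosolic until activated. It fell from 37.7 and 38.5 CPM to 30.8 and 21.4 CPM in 253J, by 0.55 on the log2 scale (SE 0.17, adjusted p = 0.0153). In J82 it fell from 35.6 and 34.0 CPM to 24.0 and 24.2 CPM, by 0.53 (SE 0.17, adjusted p = 0.0222). In TCCSUP it fell from 22.2 and 24.2 CPM to 12.4 and 16.7 CPM, by 0.67 (SE 0.18, adjusted p = 0.00496). All treated libraries of these lines lay below all their controls. RT112 went the other way without being called, from 18.4 and 16.7 CPM to 20.5 and 22.8 CPM (0.30, SE 0.18, adjusted p = 0.168), and was called higher with library size alone (0.45, adjusted p = 0.0467). The falls were modest and depended on single libraries: the 253J call was lost without control replicate 2, control replicate 3 or treated replicate 3 (adjusted p = 0.0528, 0.0622 and 0.204), the J82 call without control replicate 1, treated replicate 1 or treated replicate 3 (0.0725, 0.139 and 0.0786), and the TCCSUP call without treated replicate 1 (0.0762). With library size alone all 3 remained negative and none was called (adjusted p = 0.197, 0.0909 and 0.0972), and in J82 RLE scaling, both DESeq2 fits, edgeR fitted to the line alone and a minimum of 10 counts in every library also missed the threshold (adjusted p from 0.0536 to 0.0846).

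BAK1 encodes BAK, the effector that sits in the outer mitochondrial membrane and is held by MCL1 and BCL-XL. In 253J it rose from 33.9 and 35.1 CPM to 110.5 and 100.4 CPM, a fold of 3.05 (log2 fold change 1.61, SE 0.14, adjusted p = 2.53e-07). In RT112 it rose from 54.9 and 54.5 CPM to 90.5 and 83.1 CPM (0.67, SE 0.13, adjusted p = 7.82e-04). The controls of both lines were tightly spaced and lay below every treated library. TCCSUP showed a smaller rise from 23.0 and 25.6 CPM to 31.4 and 32.9 CPM (0.40, SE 0.14, adjusted p = 0.0201), which was lost without control replicate 1, treated replicate 1 or treated replicate 2 (adjusted p = 0.155, 0.0578 and 0.0966). In J82 the libraries overlapped, with 36.5 and 41.8 CPM in controls and 30.1 and 36.8 CPM after treatment (-0.23, SE 0.13, adjusted p = 0.190). The pseudogene BAK1P1 has its own row with 22 to 83 reads per library, against 582 or more for BAK1, and how reads shared between them were counted is not given in the sources used here.

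**Figure D2:**
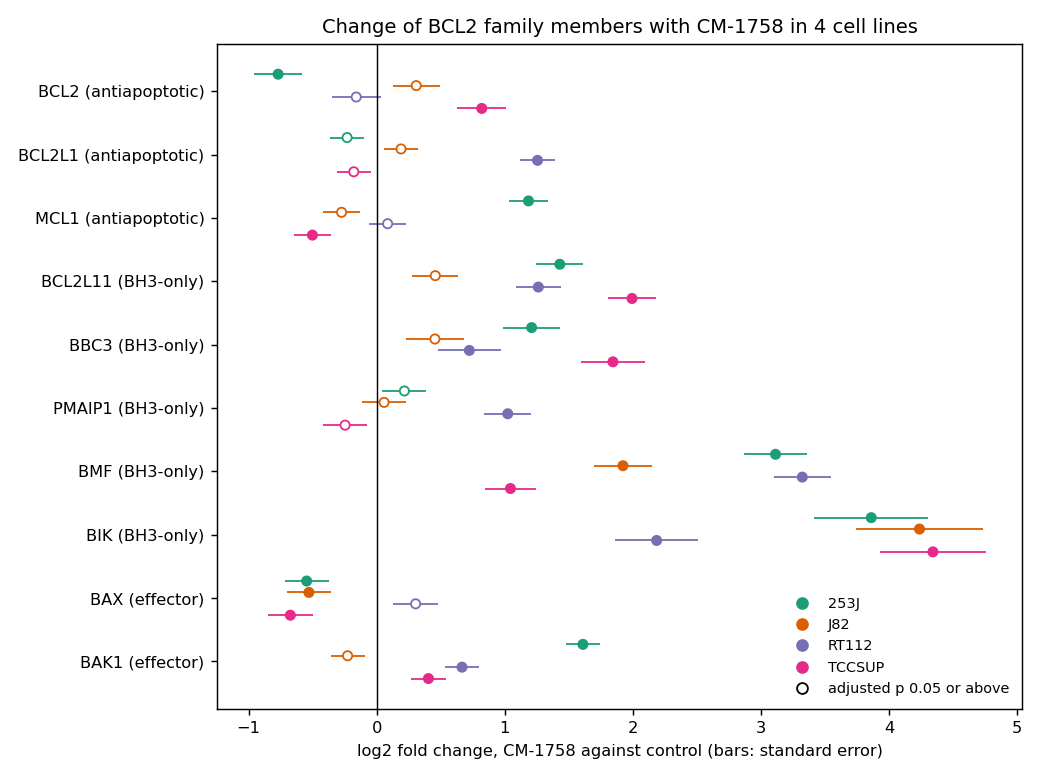
Log2 fold change of each member with CM-1758 against control on the x axis, with the members on the y axis and 1 colour per cell line. Bars are standard errors, filled points have an adjusted p under 0.05 and open points do not. The points of BMF and BIK are filled and right of 0 in all 4 lines, between 1.04 and 4.34, whereas BCL2 has filled points on both sides of 0 (-0.77 in 253J and 0.82 in TCCSUP).

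Counted over the 10 members, 6 were higher and 2 lower in 253J, 2 were higher and 1 lower in J82, 7 were higher and none lower in RT112, and 6 were higher and 2 lower in TCCSUP. The drug moved a large part of the transcriptome, and the shares of all tested genes called higher were 28.8% in 253J, 27.4% in RT112, 24% in J82 and 32% in TCCSUP. The shares called lower were 22.4%, 20.2%, 18.5% and 22.1% in the same order. More members were called higher than the background share gives for 10 genes in 253J, RT112 and TCCSUP. For J82 the number was near that share, and the numbers called lower were near or under their shares in every line. Because the members were picked with earlier results of these data known, this excess cannot be read as a property of the family. Of the 13 BCL2 family genes outside the members, 3 were higher in 253J, 3 in RT112, 1 in TCCSUP and none in J82. Those called lower numbered 5 in 253J, 2 in RT112, 6 in TCCSUP and 4 in J82. The median log2 fold change of the members was 1.197 in 253J, 0.87 in RT112, 0.25 in J82 and 0.61 in TCCSUP, against 0.10, 0.12, 0.05 and 0.20 for all tested genes. Of the 3 antiapoptotic members 1 was higher and 1 lower in 253J and in TCCSUP, 1 was higher in RT112, and none was called in J82. With library size alone the members split into 7 higher and 1 lower in 253J, 5 and 0 in J82 and 6 and 0 in TCCSUP.

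A stricter rule, a log2 fold change above 2 with an adjusted p under 0.01, was met by BMF and BIK in 253J, by BIK in J82, by BMF and BIK in RT112 and by BIK in TCCSUP. This is 2, 1, 2 and 1 of 10 members, against 9.43%, 8.81%, 11.4% and 14.2% of all tested genes. BMF and BIK were called higher in all 4 lines, 2 of 10 members where 6.69% of all tested genes were, and no member was lower in all 4. Control and treated libraries did not overlap for 8 members in 253J, 8 in RT112, 7 in J82 and 10 in TCCSUP, close to the shares for all tested genes, which were 73%, 74.3%, 62.7% and 78.5% in the same order.

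Whether the response of a member differed between lines was tested as the interaction of treatment and line. All 10 members passed, where 51.9% of all tested genes did. The adjusted p was lowest for BAK1 (1.54e-05), whose log2 fold change ran from -0.23 in J82 to 1.61 in 253J, and for BCL2L1 (3.69e-05), which was raised in RT112 and not called elsewhere. BMF (4.48e-05) and MCL1 (4.74e-05) followed. BIK, although higher in every line, also passed (0.00750), with a log2 fold change of 2.19 in RT112 and of 3.86 to 4.34 in the other lines. The interaction of BAX had an adjusted p of 0.0129 and was lost without RT112 control replicate 2 (0.0758) or RT112 treated replicate 2 (0.0659).

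Lines also differed in these genes before treatment. Of the 60 differences between pairs of control groups (10 members, 6 pairs) 47 were called, and the shares of all tested genes called ran from 48% for TCCSUP against J82, through 51.5% for TCCSUP against RT112, 52.1% for RT112 against J82, 53.1% for J82 and for TCCSUP against 253J, to 54.3% for RT112 against 253J. J82 controls had the highest mean CPM of each antiapoptotic member: 18.1 for BCL2, 164.8 for BCL2L1 and 441.0 for MCL1. BCL2 followed the order J82, 253J (12.9 CPM), RT112 (7.75 CPM) and TCCSUP (6.57 CPM), with RT112 and TCCSUP not called as different (adjusted p = 0.332). BCL2L1 followed the order J82, TCCSUP (83.5 CPM), 253J (74.3 CPM) and RT112 (31.9 CPM), with TCCSUP and 253J not called as different (0.305). MCL1 followed the order J82, TCCSUP (331.1 CPM), RT112 (282.8 CPM) and 253J (215.7 CPM), with TCCSUP and RT112 not called as different (0.217).

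Among the proapoptotic genes, the line with the highest control level differed from gene to gene. BMF was highest in TCCSUP (27.01 CPM), ahead of RT112 (4.05 CPM) and J82 (3.20 CPM), which did not differ beyond their spread (adjusted p = 0.249), and of 253J (1.68 CPM). BIK was highest in RT112 (4.45 CPM), and the other lines (0.412 CPM in TCCSUP, 0.264 in 253J and 0.147 in J82) were not called as different in any pair (adjusted p from 0.0743 to 0.372). BBC3 was highest in 253J (13.4 CPM), then J82 (8.98 CPM), with RT112 (2.61 CPM) and TCCSUP (2.18 CPM) not called as different (0.444). PMAIP1 was highest in J82 (107.1 CPM) and TCCSUP (96.5 CPM), which did not differ beyond their spread (0.512), then 253J (42.9 CPM) and RT112 (10.2 CPM). BCL2L11 was highest in RT112 (19.5 CPM), then J82 (12.8 CPM), with TCCSUP (8.89 CPM) and 253J (7.88 CPM) not called as different (0.469). BAX was highest in 253J (38.1 CPM) and J82 (34.8 CPM), a pair not called as different (0.574), as was the pair of TCCSUP (23.2 CPM) and RT112 (17.6 CPM, 0.0665). BAK1 was highest in RT112 (54.7 CPM), then J82 (39.2 CPM) and 253J (34.5 CPM), which were not called as different (0.271), and TCCSUP (24.3 CPM).

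To set levels of different genes against each other, CPM were divided by the length of the merged exons in kilobases (GENCODE release 29, basic set). MCL1 was the most abundant member per kilobase in all 8 groups, from 52.8 CPM per kilobase in 253J controls to 120.1 in treated 253J cells. BCL2 ranked last in the treated groups of all 4 lines, at 0.645 to 1.91 CPM per kilobase in 253J, J82 and TCCSUP and 0.591 in RT112, although its long merged exons lower this value. BIK moved from the last of the 10 in controls to the seventh place after treatment in 253J (0.277 to 4.05 CPM per kilobase), J82 (0.154 to 3.02) and TCCSUP (0.432 to 8.81), and from the sixth to the fourth in RT112 (4.67 to 21.3). In treated RT112 cells BIK was thus at a level per kilobase between BCL2L1 (26.7) and BAX (15.4).

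Proapoptotic and antiapoptotic members were weighed within each library as the mean log2 CPM of the 7 proapoptotic members minus that of the 3 antiapoptotic members. The difference was -3.00 and -2.59 in 253J controls and -1.29 and -1.41 in treated cells. It was -3.34 and -3.52 in J82 controls and -2.71 and -2.60 after treatment. In both lines the treated libraries lay above the controls. RT112 had -2.05 and -2.05 in controls and -1.15 and -1.06 after treatment, and TCCSUP had -2.31 and -2.58 against -1.32 and -1.22. The mean shift toward the proapoptotic side was 1.44 in 253J, 0.95 in RT112, 0.78 in J82 and 1.18 in TCCSUP on the log2 scale, with pooled SDs of the libraries of 0.214, 0.0444, 0.104 and 0.143 in the same order. The BH3-only members moved by 1.84, 1.29, 1.27 and 1.72 against the antiapoptotic members, whereas the effectors moved by 0.45, 0.08, -0.45 and -0.18. BID, a BH3-only gene outside the members, was lower in all 4 lines and is not in these means. Since a mean of log values gives a rare gene such as BIK the same weight as an abundant one, the shift was also taken from summed CPM, where it was -0.04 in 253J, 0.84 in RT112, 0.17 in J82 and 0.77 in TCCSUP, and from medians, where it was 1.198, -0.16, 0.29 and 0.68. The sign in 253J and in RT112 thus depended on the summary. No test was made on these values, because the members were chosen with results of these data known.

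**Figure D3:**
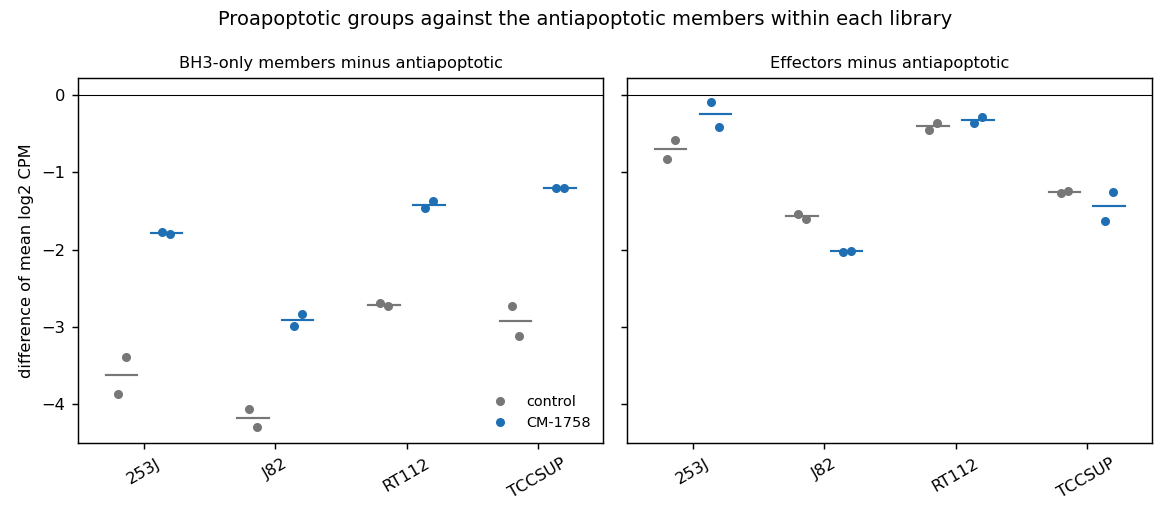
Mean log2 CPM of the 5 BH3-only members (left) and of the 2 effectors (right) minus that of the 3 antiapoptotic members, per library on the y axis and by cell line on the x axis. Grey points are controls, blue points CM-1758 libraries and short lines the means of 2 libraries. In the left panel the treated libraries lie above the controls in all 4 lines, and in the right panel they lie below them in J82 (-2.03 and -2.01 against -1.54 and -1.60).

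Of the rest of the pathway, 44 genes in 3 lists were tested and counted in the same way. Among 13 other BCL2 family genes 3 were higher and 5 lower in 253J, none was higher and 4 were lower in J82, 3 were higher and 2 lower in RT112, and 1 was higher and 6 were lower in TCCSUP, with median log2 fold changes of -0.21, -0.57, 0.02 and -0.75. The shares of all tested genes in these lines were 28.8%, 24%, 27.4% and 32% called higher and 22.4%, 18.5%, 20.2% and 22.1% called lower. BID, the BH3-only protein that links death receptors to the mitochondria when caspase-8 cuts it, was lower in all 4 lines: its mean fell from 45.8 to 12.8 CPM in 253J, from 36.2 to 13.1 in J82, from 82.5 to 18.1 in RT112 and from 39.5 to 9.86 in TCCSUP. The log2 fold changes of BID were -1.84, -1.47, -2.19 and -2.0 (SE 0.16 in each line, adjusted p from 9.30e-08 to 4.61e-06). BID thus went against the BH3-only members BMF and BIK in every line. BCL2L2, the antiapoptotic BCL-W, was also lower in all 4 lines, with log2 fold changes from -0.75 in TCCSUP to -0.44 in 253J (adjusted p from 9.10e-04 to 0.0276). The 253J call of BCL2L2 was lost without control replicate 3, treated replicate 1 or treated replicate 3 (adjusted p from 0.0595 to 0.181) as well as with library size alone (0.419) and when 10 counts were required in every library (0.0582). Its J82 call was lost without control replicate 1 or treated replicate 3 (0.0938 and 0.0768) and when edgeR or DESeq2 was fitted to the line alone (0.0766 and 0.0918). Its reads may be shared with the readthrough gene BCL2L2-PABPN1, which had 0 to 211 reads.

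Downstream of the mitochondria, 17 genes were counted, those of the apoptosome, the caspases and their inhibitors together with other genes of the pathway. In 253J 7 were higher and 4 lower, in J82 5 and 4, in RT112 1 and 3, and in TCCSUP 5 and 4, with median log2 fold changes of 0.15, -0.04, 0.00 and -0.01. Over all tested genes 24% to 32% were higher and 18.5% to 22.4% lower, and the counts of higher genes that stood farthest from these shares were the 7 in 253J, above, and the 1 in RT112, below. BIRC3, which encodes the inhibitor of apoptosis cIAP2 and is a known target of NF-κB, was the 1 gene of this list called in the same direction in all lines. It had 65 and 88 reads in RT112 controls and 10139 and 11226 reads in treated RT112 cells (log2 fold change 7.33, SE 0.34, adjusted p = 2.45e-09). Its mean rose from 223.1 to 1344 CPM in 253J, from 17.9 to 96.8 in J82 and from 49.1 to 153.3 in TCCSUP (log2 fold changes 2.59, 2.43 and 1.64, adjusted p = 1.54e-06, 6.13e-06 and 9.48e-05). BIRC3, BMF and BIK were thus all higher in each of the 4 lines.

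Partners and regulators of the family made up the third list, of 14 genes. The calls were 5 higher and 4 lower in 253J, 2 and 4 in J82, 6 and 3 in RT112 and 3 and 2 in TCCSUP, with median log2 fold changes of 0.00, -0.30, 0.07 and -0.03. The background was the same 24% to 32% higher and 18.5% to 22.4% lower. Over the 44 genes of the 3 lists the split of higher and lower calls depended on the scaling: it was 15 and 13 in 253J, 7 and 12 in J82 and 9 and 12 in TCCSUP, and with library size alone it was 17 and 8, 10 and 10, and 15 and 9. VDAC1, a channel of the outer mitochondrial membrane that binds several members, was lower in all 4 lines, with log2 fold changes from -1.31 in 253J to -0.53 in TCCSUP and J82 (adjusted p from 2.53e-05 to 0.0256). Its TCCSUP call was lost without any 1 of the 4 libraries of that line (adjusted p from 0.0726 to 0.0869) as well as with library size alone (0.287) and when 10 counts were required in every library (0.0716). Its J82 call was lost without control replicate 3, treated replicate 1 or treated replicate 3 (0.333, 0.2005 and 0.0525), and with RLE scaling, library size alone, either tool fitted to the line alone or the minimum of 10 counts (adjusted p from 0.0517 to 0.141).

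**Figure D4:**
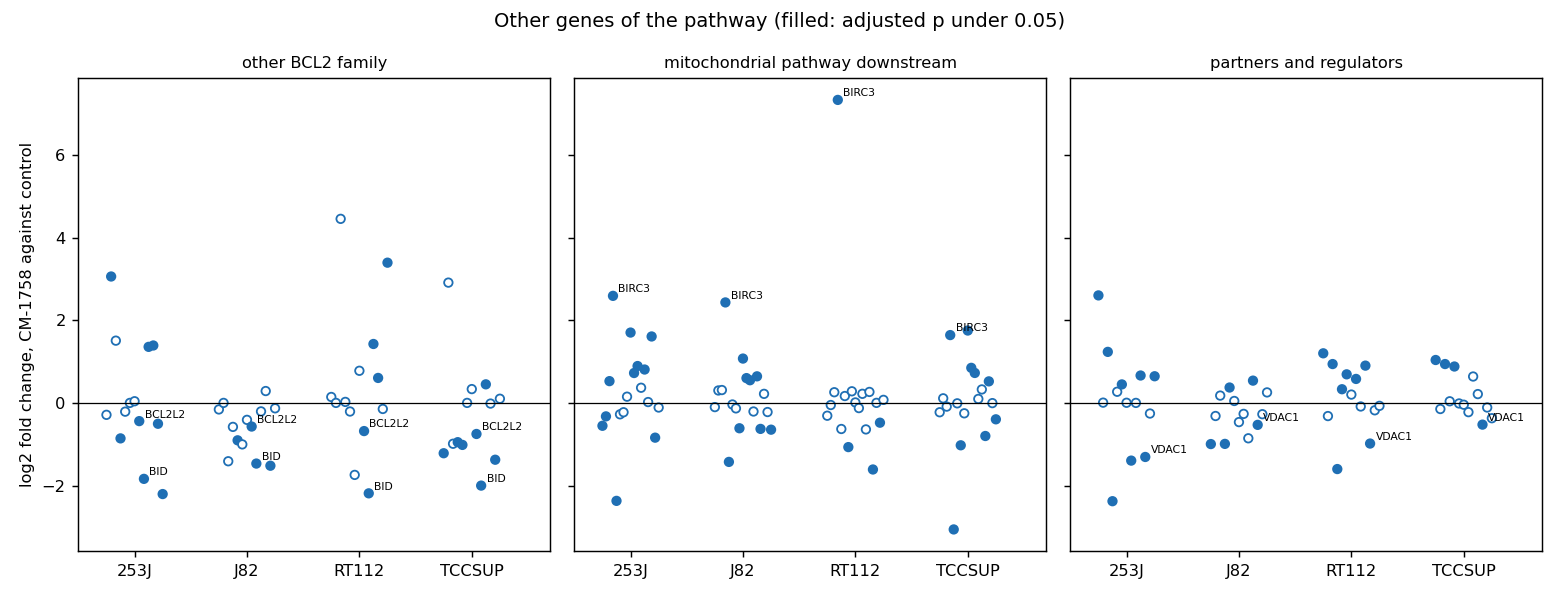
Log2 fold change with CM-1758 against control (y axis) of the reported genes of the 3 further lists by cell line (x axis), 1 point per gene. Filled points have an adjusted p under 0.05, and named genes were called in the same direction in all 4 lines. BIRC3 lies above 0 in every line and reaches 7.33 in RT112, and BID, BCL2L2 and VDAC1 lie below 0 in every line.

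The genes whose pattern over the 16 libraries was most like that of BMF were SPATA6 (Pearson r of log2 CPM 0.987) and SYT13 (0.964), and those most like BIK were POTEF (0.975) and CASTOR2 (0.969). The libraries share the same 4 lines and the same treatment, so these coefficients describe the ranking of genes and carry no test. POTEF and CASTOR2 have near-identical copies in the genome, and their counts are uncertain for that reason.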

How the data were processed

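The deposited table holds raw read counts per gene symbol for 16 libraries (4 BC cell lines, control or CM-1758, 2 libraries per group), made by the authors from stranded, ribosome-depleted total RNA sequenced on an Illumina NovaSeq. Per the labels, the processing notes name HISAT2, StringTie and GRCh37. The counting program, its strand setting and the gene annotation are not given in the sources used here. Columns were matched to libraries by title, and groups were taken from the treatment and cell line labels.

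Counts were analysed with edgeR 4.0.16 in R 4.3.3. After filterByExpr over the 8 groups 21297 genes remained, libraries were scaled by TMM, and 1 quasi-likelihood model of 8 groups (8 residual degrees of freedom) gave the contrast of CM-1758 with control in each line, the pairwise contrasts of controls and the interaction. P-values were adjusted by Benjamini-Hochberg over all tested genes within a contrast. Standard errors were derived from the F statistic and intervals from the t distribution with the residual degrees of freedom. Log2 CPM used a prior count of 2. Alternatives were RLE scaling, library size alone, DESeq2 1.42.0, fits of each line alone, other count filters, a replicate block, thinned counts, removal of abundant small RNA genes, and leaving out each library. The fit was tested on simulated data. Depth was 22506431 to 32537104 counts per library. Counting intervals cover counting error only.

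Sequences were read from GENCODE release 29 coding transcripts (GRCh38) and from a RefSeq promoter table (GRCh38.p14), and no coordinate was carried over to GRCh37. All 10 members were named, and of the 3 further lists those genes called in the same direction in all 4 lines, apart from 1 that is not reported here. For each member called in all 4 lines the nearest 2 genes by Pearson r were named. The members and lists were chosen with earlier results of these data known.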

Additional observations from a re-analysis of the deposited data

Results flagged for a closer look

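The response to CM-1758 differed between the cell lines for all 10 members by the interaction term of the edgeR quasi-likelihood F test, adjusted by Benjamini-Hochberg, where 51.9% of all tested genes also passed. The adjusted p was 0.00108 for BCL2, 3.69e-05 for BCL2L1, 4.74e-05 for MCL1, 0.00118 for BCL2L11, 0.0131 for BBC3, 0.00361 for PMAIP1, 4.48e-05 for BMF, 0.00750 for BIK, 0.0129 for BAX and 1.54e-05 for BAK1. BCL2 was lower in 253J and higher in TCCSUP, and MCL1 was higher in 253J and lower in TCCSUP, so these antiapoptotic genes took opposite directions in the same pair of lines. The fall of MCL1 in TCCSUP was not called when libraries were scaled by size alone. BCL2L1 and PMAIP1 had their called rise in RT112, the line with the lowest control level of both. The IC50 dose differed between lines and TCCSUP had its own medium, so line, dose and, for TCCSUP, medium cannot be told apart. With 2 libraries per group, single libraries could not be checked for lying apart from the rest of their group.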

How the results depend on the processing

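The counts of changed members moved little under most alternatives, but they moved in J82 and TCCSUP with library size alone. In J82 3 members were changed as reported and 5 with library size alone (5 higher and 0 lower). In TCCSUP 6 were higher and 2 lower as reported, against 6 and 0 with library size alone. Leaving out each library gave 7 to 8 changed members in 253J, 2 to 4 in J82, 6 to 7 in RT112 and 6 to 8 in TCCSUP. The 44 further genes gave 21 to 25, 12 to 20, 15 to 17 and 17 to 19 calls in the same order when a library was left out, against 28, 19, 18 and 21 as reported. In J82 the further genes gave 11 calls with edgeR fitted to the line alone and 12 without treated replicate 3. With RLE scaling the members changed in J82 were 3 higher and 0 lower, against 2 and 1, and the further genes 9 and 10, against 7 and 12. For these rises and losses the cause was not tested. Members passing the interaction numbered 9 to 10 and control differences 41 to 48 when a library was left out.

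Replicate numbers were shared between control and treated libraries, in 253J only number 3. The deviations of same-numbered libraries correlated by 0.0529 in 253J (replicate 3), 0.0427 in RT112, 0.218 in J82 and 0.0173 in TCCSUP. The main fit did not pair samples by these numbers. The correlation was highest in J82, and whether same-numbered libraries of that line belong together was not tested. With the replicate block 8 members were changed in 253J, 7 in RT112, 4 in J82 and 8 in TCCSUP, and BCL2L11 in J82 was called (log2 fold change 0.48, adjusted p = 0.0424). Control differences numbered 37 with the replicate block, against 47.

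Single fold changes kept their direction and side of the threshold in 508 cases, passed it in 18 and lost it in 24, always with the sign kept. The sign turned in 6, all of values not called: BCL2 in RT112 when a library was left out (-0.371 to 0.0814), PMAIP1 in 253J (-0.0449 to 0.437) and in J82 (-0.0813 to 0.264) likewise, and, with library size alone, BCL2L1 in 253J (0.0426) and TCCSUP (0.133) and PMAIP1 in TCCSUP (0.0653). No sign turned for BID, BCL2L2, BIRC3 or VDAC1, and BID and BIRC3 stayed called in every line under every alternative. BIK was not tested when 10 counts were required in every library.

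The shift of proapoptotic against antiapoptotic members was 1.198, 0.29, -0.16 and 0.68 by medians and -0.0376, 0.17, 0.84 and 0.77 by summed CPM in 253J, J82, RT112 and TCCSUP, against 1.44, 0.78, 0.95 and 1.18 by means. Sums are dominated by MCL1, which has the highest CPM. Leaving out libraries gave 1.24 to 1.65, 0.69 to 0.86, 0.90 to 0.99 and 1.04 to 1.31. No member had a mean under 1 CPM over the control and treated libraries of a line together. In the controls alone, BIK had means of 0.264 CPM in 253J, 0.147 in J82 and 0.412 in TCCSUP. Depth limited BIK most, with 2 to 15 reads in the controls of 253J, J82 and TCCSUP.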
